A study of Mus musculus with 16 samples.

Results

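The genes described here are 9 complement components and receptors, C1qa, C1qb, C1qc, C1ra, C2, Cfb, C4b, C3ar1 and C5ar1, of 24651 genes and unnamed targets tested in the adult mouse uterus. They were chosen by name, with earlier results of these data known, and their probes were found through RefSeq accessions. All 9 had a probe on the array, all 9 passed the filter on dim probes, and together they had 11 probes, 2 each for C2 and C3ar1.

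RNA of the entire uterus was hybridised to 16 Agilent one-colour arrays, 4 in each of 4 groups. GenD mice received 50 mg/kg genistein, a soy isoflavone with oestrogenic activity, on postnatal days 1 to 5 and 1 mg/kg dexamethasone, a synthetic glucocorticoid, as adults. GenV mice received the same neonatal genistein and adult vehicle, 100 µl of saline. SalD mice received the neonatal control and adult dexamethasone, and SalV mice the neonatal control and adult vehicle. The sample labels call the neonatal control saline, whereas the series' design text describes 20 µl of corn oil, and this conflict could not be settled. All 4 groups lost the adrenals and ovaries at week 6, were injected at week 8 and were sampled after 4 h, so adrenal corticosteroids and ovarian hormones were removed in controls and treated mice alike. The labels do not say whether each array is a single mouse, so the p-values measure the spread between these samples, and 4 arrays in a group limit the precision.

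Complement is a cascade of plasma and tissue proteins that tags and lyses targets and recruits leukocytes. In the classical pathway, C1q binds a target and activates the protease C1r, which activates C1s, and C1s then cleaves C4 and C2 to form a C3 convertase. In the alternative pathway, factor B, cleaved by factor D, forms the convertase. The released fragments C3a and C5a act on receptors of myeloid cells. Glucocorticoids are known to dampen inflammatory gene expression, and macrophages are a known source of C1q.

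C1qa, C1qb and C1qc are neighbours on chromosome 4, C2, Cfb and C4b lie on chromosome 17, C1ra and C3ar1 on chromosome 6 and C5ar1 on chromosome 7. RefSeq promoter windows (GRCm38.p6, 250 bases before to 50 after the start) were matched for 5 of 9 members, C1qb, C1qc, C1ra, C3ar1 and C5ar1. The windows of C1qb and C1qc are printed because, of these neighbouring genes, C1qb was called between GenD and SalD and C1qc was not. That of C1ra is printed because it was the only member called higher in SalD than in SalV. They lie at chr4:136886151-136886450 on the minus strand for C1qb, at chr4:136892865-136893164 on the minus strand for C1qc and at chr6:124512371-124512670 on the plus strand for C1ra. Capitals mark AGAACA, a short element bound by the glucocorticoid receptor, and GGAAGT, the core of ETS factor sites, on either strand.

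C1qb: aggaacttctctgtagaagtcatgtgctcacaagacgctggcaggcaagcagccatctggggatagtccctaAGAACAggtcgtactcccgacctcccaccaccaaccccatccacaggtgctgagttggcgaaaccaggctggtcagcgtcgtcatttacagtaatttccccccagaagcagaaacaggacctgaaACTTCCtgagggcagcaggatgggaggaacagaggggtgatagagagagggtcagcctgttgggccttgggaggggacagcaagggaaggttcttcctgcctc
C1qc: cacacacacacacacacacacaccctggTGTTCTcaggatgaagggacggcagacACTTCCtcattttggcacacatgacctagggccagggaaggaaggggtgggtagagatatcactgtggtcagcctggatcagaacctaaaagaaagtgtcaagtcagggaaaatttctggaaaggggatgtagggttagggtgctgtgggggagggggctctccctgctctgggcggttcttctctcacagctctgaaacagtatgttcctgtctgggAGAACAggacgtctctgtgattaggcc
C1ra: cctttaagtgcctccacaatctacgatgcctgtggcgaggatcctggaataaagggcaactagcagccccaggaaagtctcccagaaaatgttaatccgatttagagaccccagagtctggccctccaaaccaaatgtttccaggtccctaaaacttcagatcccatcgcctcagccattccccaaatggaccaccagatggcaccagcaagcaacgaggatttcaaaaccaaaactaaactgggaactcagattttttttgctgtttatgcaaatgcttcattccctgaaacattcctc

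AGAACA occurred 1 time in the C1qb window, at position -178 from the start, and 2 times in the C1qc window. GGAAGT occurred 1 time in each of these windows, and neither motif occurred in the C1ra window. AGAACA is in 19% and GGAAGT in 23.8% of 32851 promoter windows of the same length, so these matches are common. Both strands were searched. TTCNNNGAA, the STAT site pattern, was found 1 time in C1ra and is in 8.3% of windows, and the interferon-stimulated response element pattern, 2 runs of GAAA with 2 bases between them, was found in 0 of the 5 and is in 3.44%. A match is a run of letters and not a measured site.

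Signals are given as log2 of the scanner signal minus the 75th percentile of the same array, so 0 is that percentile, and each probe's values are compared only with its own. A gene was called when its limma p-value, Benjamini-Hochberg adjusted over all 24651 targets, was below 0.05. The 75th percentile ranged from 948 to 2719 units of scanner signal over the 16 arrays, and the share of spots well above background from 68.9% to 81.3%. Fkbp5, a glucocorticoid-induced chaperone, was higher by 4.44 in SalD than in SalV and by 4.56 in GenD than in GenV on the log2 scale, and Tsc22d3, encoding GILZ, by 2.42 and 2.40, which checks the dexamethasone labels. All 14 uterine markers examined were above background on 16 arrays. The 4 SalD arrays stood apart: their 75th percentile was 1987 to 2719 against 948 to 2029 on the SalV arrays, and they had the 4 highest scores on the first principal component, which held 29.7% of the variance. Across the 16 arrays, that component correlated at 0.90 with C1ra, at -0.82 with C1qa, at -0.81 with C1qb, at -0.83 with C3ar1 and at 0.01 with C1qc. Its part in the results below was not tested.

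Adult dexamethasone without neonatal genistein, SalD against SalV, went with lower C4b, Cfb and C3ar1 and higher C1ra, while C1qc and C2 had differences near 0. In all, 1 of 9 members rose and 3 fell, against 8.45% of all targets called higher and 14.6% called lower, or 23.0% called in either direction. The groups did not overlap for 5 members, C1qb, C4b, Cfb and C3ar1 being lower and C1ra higher, where 17.5% of all targets did not overlap and were lower and 10.9% did not overlap and were higher. The median difference of the members was -0.62, beside -0.16 over all targets. It includes C5ar1, which was well above background on 0 SalD arrays and 1 SalV array. The balance of calls over all targets depended on scaling, with 2082 of 5669 higher here, 2262 of 4783 under quantile normalization and 3431 of 5295 under median scaling, where the median of all targets was 0.07. In whole-tissue RNA, fewer cells of a type and less RNA per cell cannot be told apart.

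C4b encodes complement C4, the substrate of C1s whose larger fragment is deposited on targets. Its signal was 0.15, 0.77, 0.75 and 0.84 in GenD and 1.11, 1.38, 1.26 and 1.15 in GenV uteri. It was 0.29, 0.68, 0.46 and 0.21 in SalD and 1.77, 1.56, 1.33 and 1.05 in SalV uteri. Each dexamethasone array was below every vehicle array of the same neonatal treatment. C4b fell by 1.02 on the log2 scale (SE 0.19, 2.03-fold, limma adjusted p = 0.0025) in SalD against SalV. The GenD minus GenV difference was -0.60 (SE 0.19, 95% interval -0.99 to -0.20, limma adjusted p = 0.083), which was not called. C4a, a near-identical copy that could share signal with C4b, was well above background on 0 arrays.

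Cfb encodes factor B, the catalytic subunit of the alternative pathway convertase. Its signal was 1.25, 1.71, 2.32 and 2.31 in GenD and 2.15, 1.91, 3.65 and 3.02 in GenV uteri. It was 1.18, 1.27, 1.48 and 1.54 in SalD and 2.22, 2.10, 2.79 and 2.41 in SalV uteri. All SalD arrays lay below all SalV arrays, whereas GenD and GenV overlapped. Cfb fell by 1.01 (SE 0.34, 2.02-fold, limma adjusted p = 0.0455) in SalD against SalV, a call that was lost when any 1 of the 8 arrays was left out, with adjusted p from 0.0570 to 0.110. It was also lost under median scaling (-0.79, adjusted p = 0.162) and with the slide as a fixed block (-0.94, adjusted p = 0.103).

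C2 encodes the catalytic subunit of the classical convertase and lies beside Cfb. Its brighter probe averaged 2.94 ± 0.33 in GenD, 3.06 ± 0.34 in GenV, 2.87 ± 0.29 in SalD and 2.87 ± 0.28 in SalV uteri (SD, n = 4 each). The SalD minus SalV difference was 0.0015 with a 95% interval of -0.47 to 0.47, so a change as large as that of Cfb lay outside it. The second C2 probe gave -0.22 (limma adjusted p = 0.419).

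**Figure D1:**
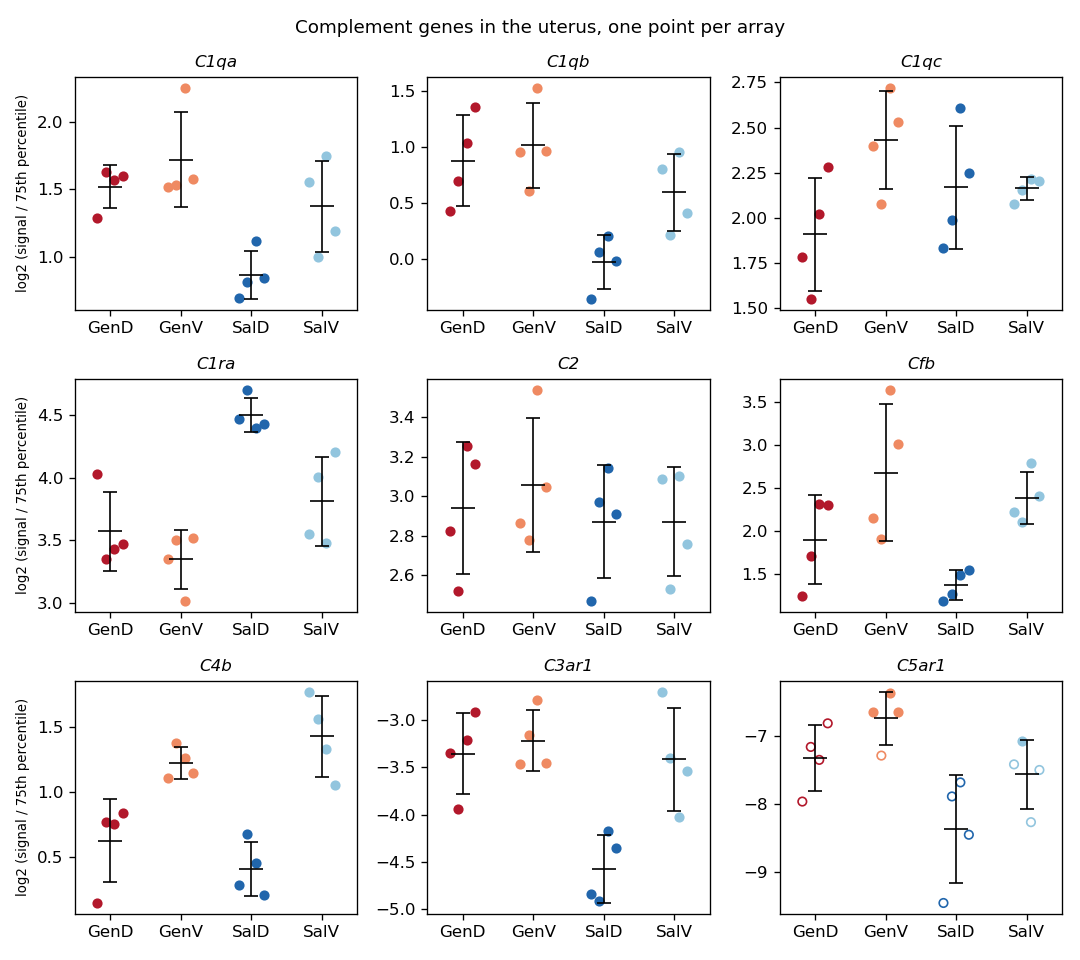
Signal of the 9 members on every array, as log2 signal over the array's 75th percentile, in GenD, GenV, SalD and SalV uteri. Points are arrays, bars are the mean and SD of 4 arrays, and open points were not well above background. C4b and Cfb were lower on every SalD than on every SalV array, and C1ra was higher.

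C1qa, C1qb and C1qc encode the A, B and C chains that together build C1q, the recognition molecule of the classical pathway. C1qa was 1.29, 1.63, 1.57 and 1.60 in GenD and 1.52, 1.53, 2.25 and 1.58 in GenV uteri. It was 0.69, 0.81, 1.12 and 0.84 in SalD and 1.55, 1.00, 1.75 and 1.19 in SalV uteri. C1qa was lower on every SalD array than on every GenD array, and overlapped between SalD and SalV.

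C1qb was 0.43, 0.70, 1.04 and 1.35 in GenD and 0.96, 0.61, 1.53 and 0.97 in GenV uteri. It was -0.35, 0.07, 0.21 and -0.02 in SalD and 0.81, 0.22, 0.96 and 0.41 in SalV uteri. All SalD arrays were below all other arrays for C1qb, narrowly so against SalV. C1qc was 1.78, 1.55, 2.02 and 2.28 in GenD and 2.40, 2.08, 2.72 and 2.53 in GenV uteri. It was 1.83, 1.99, 2.61 and 2.25 in SalD and 2.08, 2.16, 2.22 and 2.21 in SalV uteri, and all groups overlapped for it.

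For SalD against SalV, the differences were -0.51 for C1qa (SE 0.20, limma adjusted p = 0.0772), -0.62 for C1qb (SE 0.24, adjusted p = 0.0752) and 0.006 for C1qc (SE 0.20, adjusted p = 0.986). None of these was called, although the unadjusted p was 0.0220 for C1qa and 0.0212 for C1qb, below 0.05 as in 37.5% of all targets. For GenD against GenV they were -0.20 for C1qa, -0.14 for C1qb and -0.52 for C1qc, and none was called (limma adjusted p = 0.679, 0.855 and 0.156). Whether the 3 chains differed from each other was not tested.

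C1ra encodes the protease C1r. Its signal was 4.03, 3.35, 3.43 and 3.48 in GenD and 3.35, 3.51, 3.02 and 3.52 in GenV uteri. It was 4.47, 4.70, 4.40 and 4.43 in SalD and 3.55, 4.01, 3.48 and 4.21 in SalV uteri. The 4 SalD arrays were above all 12 others. C1ra rose by 0.69 (SE 0.20, 1.61-fold, limma adjusted p = 0.0234) in SalD against SalV, and the GenD minus GenV difference was 0.22 (limma adjusted p = 0.635). The call was lost without SalV replicate 1 (0.60, adjusted p = 0.0774), without SalV replicate 3 (0.58, adjusted p = 0.0621), without SalD replicate 2 (0.62, adjusted p = 0.0531) and with the slide as a fixed block (0.61, adjusted p = 0.0641). C1rb, a near-identical copy of C1ra, gave -0.55 in SalD against SalV (limma adjusted p = 0.131), so the probes of the copies differed in sign.

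C3ar1 encodes the receptor of the C3a fragment. Its brighter probe gave -3.34, -3.93, -3.22 and -2.92 in GenD and -3.47, -3.15, -2.79 and -3.46 in GenV uteri. It gave -4.84, -4.91, -4.18 and -4.36 in SalD and -2.70, -3.40, -4.02 and -3.54 in SalV uteri. SalD arrays were below all others on this probe, and it fell by 1.16 (SE 0.29, 2.23-fold, limma adjusted p = 0.0122) in SalD against SalV. The dimmer C3ar1 probe averaged -5.03 ± 0.31 in GenD, -4.09 ± 0.57 in GenV, -4.86 ± 0.55 in SalD and -4.35 ± 0.42 in SalV uteri (SD, n = 4 each). That probe gave -0.51 (limma adjusted p = 0.255) for SalD against SalV and -0.94 (adjusted p = 0.117) for GenD against GenV, beside -0.14 (adjusted p = 0.883) on the brighter probe. The call on the brighter probe was lost under quantile normalization (-0.85, adjusted p = 0.0508) and with normexp background correction (-1.38, adjusted p = 0.0559).

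C5ar1 encodes the main receptor of C5a and lay near background. It was well above background on 0 GenD, 3 GenV, 0 SalD and 1 SalV arrays, with measured means of -7.32, -6.74, -8.37 and -7.57. Raising each GenD array to the lowest signal well above background there put the GenV mean 1.19-fold above the GenD mean. That GenV mean includes replicate 2 at -7.29, which was not well above background. The 95% interval of the GenD minus GenV difference was -1.38 to 0.22, so no fall is shown. C5ar1 passed the filter on dim probes with 3 GenV arrays and 1 SalV array, so a higher GenV value follows in part from that choice. No fold is given for SalD against SalV, where 1 of 8 arrays measured it. Neither difference was called (limma adjusted p = 0.473 and 0.133).

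**Figure D2:**
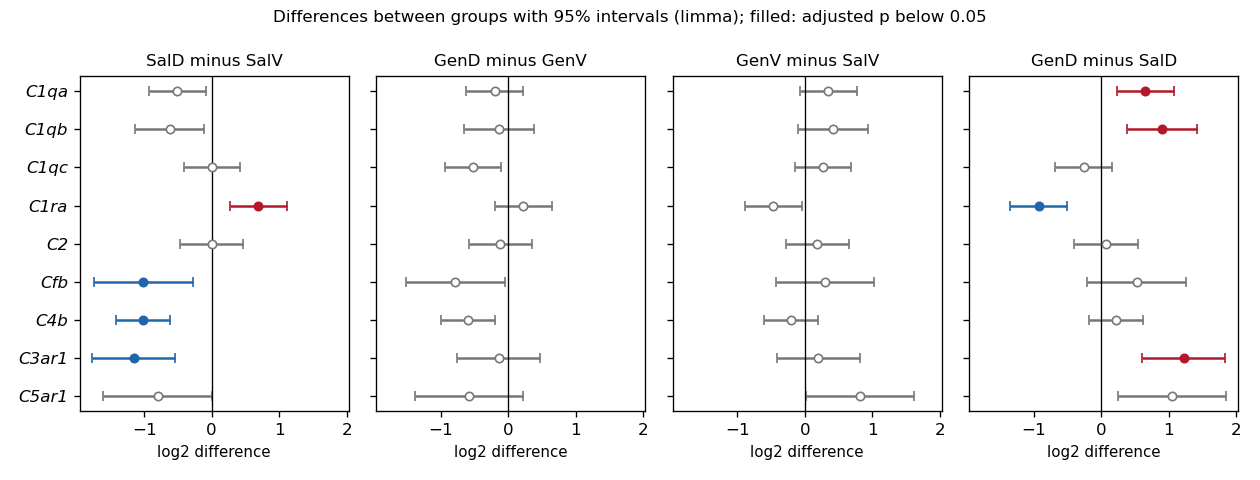
Log2 differences of the 9 members with 95% intervals for SalD minus SalV, GenD minus GenV, GenV minus SalV and GenD minus SalD. Filled points had a limma adjusted p below 0.05, and C4b at -1.02 in SalD minus SalV had the narrowest interval of the 3 that fell there.

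Dexamethasone after neonatal genistein, GenD against GenV, gave a negative difference in 8 of 9 members and in 51.7% of all targets, but 0 of 9 passed the test, with 5.29% of all targets called, 2.49% higher and 2.80% lower. The 8 include C5ar1, which passed the filter on dim probes mainly through GenV. At an unadjusted p below 0.05 there were 3 members, C1qc, Cfb and C4b, and 4439 of all 24651 targets. The groups did not overlap for 1 member, C4b, where 6.20% of all targets did not overlap and were lower and 6.03% did not overlap and were higher. Cfb had -0.78 (SE 0.34, limma adjusted p = 0.237). The median of the members was -0.20, beside -0.01 over all targets.

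The series' title concerns early genistein and the adult glucocorticoid response, a question that the difference between these effects addresses. It was called for 0 of 9 members and for 0.00% of all targets (96 targets with array weights), while 3830 targets and 1 member had an unadjusted p below 0.05. The member was C3ar1, with 1.02 on its brighter probe (SE 0.41, limma adjusted p = 0.263) and -0.43 on its dimmer probe. For C4b the difference of effects was 0.42 with a 95% interval of -0.14 to 0.98, and for C1ra it was -0.47 with an interval of -1.06 to 0.13. A dexamethasone effect called in mice without genistein and not called after it is therefore not shown to differ for any member.

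Neonatal genistein under adult vehicle, GenV against SalV, gave 0 of 9 members called, with 0.00406% of all targets called. The groups overlapped for all 9, where 2.89% of all targets did not overlap and were higher and 1.89% did not overlap and were lower. Unadjusted p-values were below 0.05 for C1ra (-0.46, SE 0.20, limma adjusted p = 0.349) and C5ar1 (limma adjusted p = 0.355), and for 13.9% of all targets. C5ar1 was well above background on 3 GenV arrays and 1 SalV array, so no difference is given for it. It passed the filter on dim probes mainly through GenV, so its unadjusted p follows in part from that choice.

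Neonatal genistein under adult dexamethasone, GenD against SalD, went with higher C1qa, C1qb and C3ar1 and lower C1ra. In all, 3 of 9 members rose and 1 fell, against 16.5% of all targets called higher and 6.39% called lower, or 22.9% in either direction. The groups did not overlap for those 4 members, and 19.6% of all targets did not overlap and were higher and 9.05% did not overlap and were lower. The median of the members was 0.53, beside 0.12 over all targets. It includes C5ar1, which was well above background on 0 GenD and 0 SalD arrays. Over all targets 4078 of 5654 calls were higher here, 3017 of 5364 under quantile normalization and 2615 of 4645 under median scaling. This comparison shares the SalD arrays with SalD against SalV, so the mirrored signs of the 2 comparisons are not independent.

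C1qb rose by 0.90 (SE 0.24, 1.87-fold, limma adjusted p = 0.0188) and C1qa by 0.65 (SE 0.20, 1.57-fold, adjusted p = 0.0308) in GenD against SalD. C1qc had -0.26 (SE 0.20, 95% interval -0.68 to 0.16, limma adjusted p = 0.337), so no rise of the size seen for the other chains fell within its interval. Under median scaling the calls of C1qa (0.54, adjusted p = 0.115) and C1qb (0.79, adjusted p = 0.0583) were lost. When 1 of the 8 arrays was left out in turn, C1qa was called in 2 of 8 fits and C1qb in 5 of 8. The C1qa call was lost without SalD replicate 1, 2 or 4 or GenD replicate 2, 3 or 4, and the C1qb call without SalD replicate 1 or GenD replicate 3 or 4.

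C1ra fell by 0.93 (SE 0.20, 1.90-fold, limma adjusted p = 0.0079) in GenD against SalD, and was called in all 8 fits that left out 1 array. C3ar1 rose by 1.22 on its brighter probe (SE 0.29, 2.33-fold, limma adjusted p = 0.0116), but the dimmer probe had -0.17 and the mean of both probes 0.53 (adjusted p = 0.154), which ended the call. C5ar1 was not well above background on any GenD or SalD array, so no fold is given. Cfb and C4b were not called (0.53 and 0.22, limma adjusted p = 0.267 and 0.397).

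The arrays sat on 5 slides. Within the slides that held both SalD and SalV arrays, 1, 3 and 4, the difference was -1.33, -1.27 and -0.59 for C4b, -0.82, -0.92 and -0.93 for Cfb and -1.93, -1.44 and -0.64 for the brighter C3ar1 probe. For C1ra it was 1.01, 0.46 and 0.19. Within slides 3 and 4, GenD minus SalD was 0.93 and 0.48 for C1qa, 1.05 and 1.15 for C1qb, -1.12 and -0.92 for C1ra and 0.91 and 1.26 for C3ar1. Each within-slide value had the sign of the pooled call. It could not have differed, because the 2 groups did not overlap for any of these genes, so the signs are no separate check.

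Some pairs of members moved together across arrays, and others were weakly correlated, such as C2 and C4b (r = 0.17 over the 16 arrays). C1ra correlated negatively with every other member. C1qa and C1qb correlated at r = 0.94 over the 16 arrays and at 0.84 with group means removed, and C1qa and C1ra at -0.94 and -0.81. C1qa and C1qc, whose genes lie next to each other and whose chains assemble together, correlated at 0.33 and 0.47. With the mean of 19 macrophage genes, C1qc correlated at 0.94 and 0.93, Cfb at 0.78 and 0.80, C2 at 0.73 and 0.81, C1qb at 0.61 and 0.81 and C1qa at 0.58 and 0.65. C5ar1 correlated with that mean at 0.64 and 0.65, C4b at 0.43 and 0.17, C3ar1 at 0.41 and 0.43 and C1ra at -0.45 and -0.44. These are descriptions over arrays that share slides and groups. Of 24650 other targets, 94 had an r above 0.9 and 106 an r below -0.9 with C1qa, and 195 and 94 with C1ra. The counts were 7 and 0 with C1qc, 7 and 15 with Cfb and 0 and 0 with C2. How many targets correlated as highly with the macrophage mean was not counted.

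**Figure D3:**
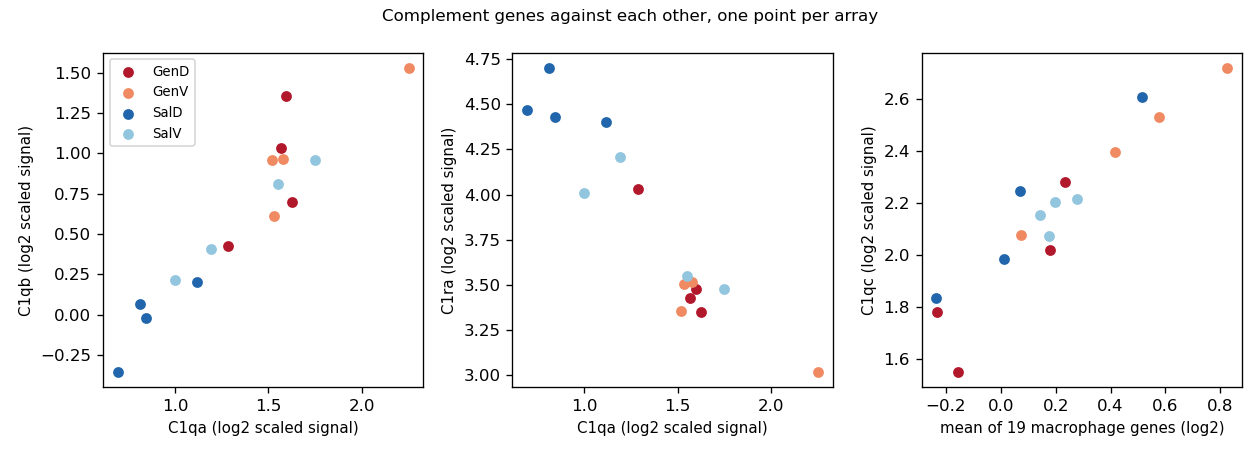
Signal of pairs of genes on the 16 arrays as log2 scaled signal: C1qa against C1qb, C1qa against C1ra, and the mean of 19 macrophage genes against C1qc. Points are coloured by group, and the first pair rises together (r = 0.94), the next runs opposite (r = -0.94) and the last rises together (r = 0.94).

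Over the 16 arrays, the genes outside the member list whose pattern was most like the mean of the 3 C1q chains, of 16520 genes ranked by Pearson r, were Cryab (0.95), Pld3 (0.94), Fcer1g (0.94), Prdx2 (0.94) and Det1 (0.94). Fcer1g encodes the signalling chain of Fc receptors. Those most like Cfb were Klc4 (0.93), C2cd4a (0.92), Pld3 (0.91), Gas2l1 (0.91) and Ctsz (0.91), the last encoding cathepsin Z.

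Macrophage markers were examined because macrophages are a known source of C1q. All 6 defining markers, Adgre1, Csf1r, Cd68, Aif1, Fcgr1 and Cx3cr1, were above background on 16 arrays, and 19 of 19 listed markers were tested. Their summed level, as a multiple of the 75th percentile, was 32.9 to 49.4 in GenD, 44.1 to 89.8 in GenV, 33.2 to 58.3 in SalD and 40.1 to 48.4 in SalV uteri. In SalD against SalV, 3 markers rose (Cd163, Mertk and Mrc1), 3 fell (Aif1, Cx3cr1 and Fcgr1) and 13 were not called. The median difference of the 19 was -0.18 there, and 8.45% of all targets were called higher and 14.6% lower. In GenD against GenV, 1 rose and 5 fell, with a median of -0.59, beside 2.49% of all targets called higher and 2.80% lower. In GenD against SalD, 1 marker rose, 2 fell and 16 were not called, with a median of -0.08, beside 16.5% of all targets called higher and 6.39% lower. In GenV against SalV, 0 markers were called and the median was 0.41. The summed level of 18 interferon-response genes was 29.4 to 45.3 in GenD and 54.3 to 97.8 in GenV uteri, and 23.0 to 38.8 in SalD and 62.5 to 81.7 in SalV uteri. Of these genes 12 fell in SalD against SalV and 4 in GenD against GenV, and 0 rose in either. The shares of all targets called lower were 14.6% and 2.80%. The summed level of 6 neutrophil genes was 0.49 to 0.98 in GenD and 2.33 to 4.56 in GenV uteri, and 0.55 to 1.48 in SalD and 2.84 to 3.83 in SalV uteri. That of 11 lymphocyte genes was 1.83 to 2.39 in GenD and 2.63 to 3.16 in GenV uteri, and 1.28 to 1.52 in SalD and 2.22 to 2.65 in SalV uteri. Of the lymphocyte genes 7 fell in SalD against SalV, beside 14.6% of all targets, and 7 rose in GenD against SalD, beside 16.5%. In SalD against SalV, 1 of 6 mast cell and eosinophil genes and 1 of 3 hepatocyte genes rose and 0 fell. There, 0 of 2 red blood cell genes were called, and of 13 uterine genes 1 rose and 1 fell. Beside these counts, 8.45% of all targets were called higher and 14.6% lower. The part of these cells in the results was not tested.

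Of 44 other complement genes listed, 43 were on the array and 34 were tested. In SalD against SalV 2 rose, 5 fell and 27 were not called, so 20.6% were called, near the 23.0% of all targets. Their median was -0.20, beside -0.16 over all targets. Factor D, Cfd, a protease made by fat cells that cleaves factor B, was 5.13 ± 1.87 in SalD and 1.63 ± 2.09 in SalV uteri (SD, n = 4 each), an 11.3-fold rise (log2 3.49, SE 1.08, limma adjusted p = 0.0326). The other riser was Cr1l (0.43, adjusted p = 0.0420), the rodent membrane regulator Crry, named here because the count is small. A dimmer probe of Cd59a, an inhibitor of the membrane attack complex chosen after its values were seen, gave 0.91 (limma adjusted p = 0.0031) in SalD against SalV and -0.70 (adjusted p = 0.0146) in GenD against SalD, beside -0.12 and 0.33 on its brighter probe, neither called. When 1 array was left out in turn, Cfd was called in 3 of 8 fits and Cr1l in 1 of 8, and Cfd had 2.55 (adjusted p = 0.0837) without SalV replicate 4. The Cfd call was also lost without SalV replicate 2 or SalD replicate 2, 3 or 4. Without SalD replicates 2 and 3, Cfd had 2.24 (adjusted p = 0.261), and those arrays had the highest adipocyte sums, 131 and 125.

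The summed level of 8 adipocyte markers, Cfd's cell type, was 4.68 to 40.8 in GenD, 9.72 to 39.2 in GenV, 8.11 to 131 in SalD and 1.27 to 11.7 in SalV uteri. Of the 8, 5 rose in SalD against SalV, where 8.45% of all targets were called higher. The part of fat tissue in the Cfd value was not tested.

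The falling genes were C1rl, a C1r-like protease (-1.07, adjusted p = 0.0049), Cr2, a receptor of C3 fragments on B cells and follicular dendritic cells (-1.06, adjusted p = 0.0087), Cd93, once described as a C1q receptor (-0.99, adjusted p = 0.0203), C5ar2, the second C5a receptor (-0.51, adjusted p = 0.0308), and Serping1, the C1 inhibitor (-0.44, adjusted p = 0.0491), all from the limma fit. A second Cd93 probe gave -1.44 there, and in GenD against GenV the probes gave -0.91 (limma adjusted p = 0.0717) and -1.03 (adjusted p = 0.0135). C1rl kept its call in 22 of 22 alternatives and Cr2 in 19 of 21, whereas C5ar2 did so in 11 of 22 and Serping1 in 9 of 22. Cr2 was near background, and well above it on 3 SalD and 3 SalV arrays. C5ar2 was -2.88 to -2.67 on the GenD arrays, all below the lowest GenV array at -2.32, and its difference was -0.61 (SE 0.15, limma adjusted p = 0.0360), the only one of the 34 called in GenD against GenV on the brightest probes. That call was lost in each of the 8 fits that left out 1 array.

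C3, the centre of the cascade, averaged 6.07 ± 0.17 in GenD, 6.45 ± 0.50 in GenV, 6.29 ± 0.40 in SalD and 6.34 ± 0.26 in SalV uteri (SD, n = 4 each). Its SalD minus SalV difference was -0.05 (95% interval half-width 0.53, limma adjusted p = 0.911), while a dimmer C3 probe gave -0.64 (adjusted p = 0.154). C1s1, the C1s protease, had -0.25 (adjusted p = 0.326). Neither C1s1 nor C3 was called in SalD against SalV. The sign of C3 flipped under quantile normalization and under median scaling.

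Neither the difference of the 2 effects nor GenV against SalV was called for any of the 34. In GenD against SalD 3 rose and 1 fell, so 11.8% were called, below the 22.9% of all targets. Cr2 rose by 1.33 (limma adjusted p = 0.0047) and C1rl by 0.74 (adjusted p = 0.0307, called in 14 of 22 alternatives). Mbl2, the mannose-binding lectin, was called higher (limma adjusted p = 0.0115), but was well above background on 2 of 4 GenD and 0 of 4 SalD arrays. Raising each SalD array to the lowest signal well above background there put the GenD mean 1.62-fold above the SalD mean. That GenD mean includes arrays that were not well above background, so 1.62 is no lower bound. Mbl2 passed the filter on dim probes only through the genistein groups, with 2 GenD and 2 GenV arrays, so its difference from SalD follows in part from that choice and is no support for the count. The summed level of 3 hepatocyte genes, markers of the main source of Mbl2, was 0.194 to 0.324 in GenD and 0.0905 to 0.109 in GenV uteri. It was 0.145 to 0.183 in SalD and 0.0753 to 0.124 in SalV uteri. Of these genes, Apoa1 and Fga were each well above background on only 5 of 16 arrays. The part of hepatocyte RNA in the Mbl2 value was not tested. Itgam, a subunit of complement receptor 3, fell by 1.26 (adjusted p = 0.0225) on its brighter probe, with 0.38 on the other. It was called in 15 of 22 alternatives, and the call was lost with the mean of both probes (-0.44, adjusted p = 0.327), with normexp (-0.52, adjusted p = 0.318), with the slide as a fixed block (adjusted p = 0.0742) and without SalD replicate 3, SalD replicate 4 or GenD replicate 1 (adjusted p = 0.0676, 0.0591 and 0.0510) and without SalD replicates 2 and 3 (adjusted p = 0.0945).

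**Figure D4:**
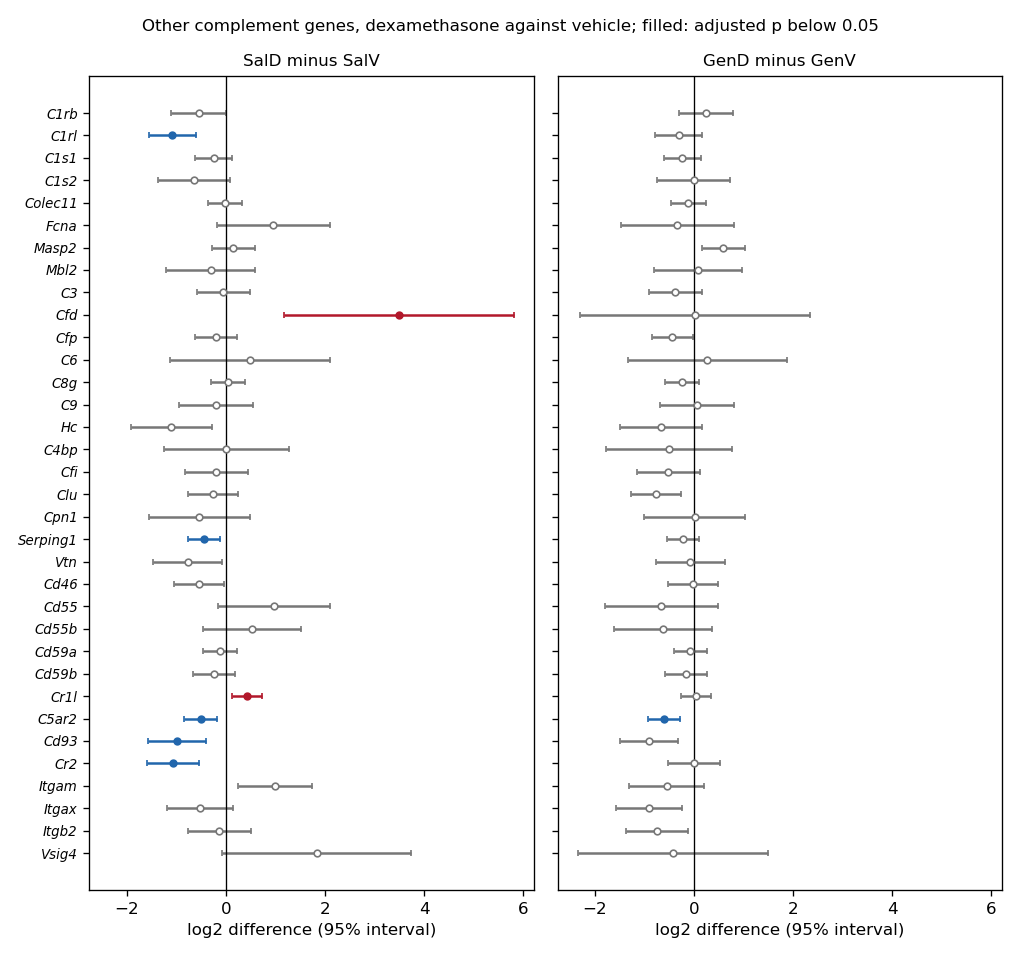
Log2 differences with 95% intervals of the 34 other complement genes tested, ordered by role, for SalD minus SalV and GenD minus GenV. Filled points had a limma adjusted p below 0.05: 7 genes in the first panel, Cfd with the largest value at 3.49, and C5ar2 alone at -0.61 in the other.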

How the data were processed

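Per the labels' protocols, 400 ng of RNA per sample was labelled with Cy3. The deposited values are scanner intensity per spot, background-subtracted and detrended by Agilent Feature Extraction 12.0.0.7 per the file headers, linear and without any between-array normalization, and the submitters' processing notes name version 9.5. Spot flags are 0 or 1 per the file headers. The value table of the series held the same deposited intensity, with a largest difference of 0. Each array had 45018 spots, 1639 of them controls, for 41174 probes.

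From these, log2 signals minus each array's 75th percentile were computed. Outlier-flagged spots were left out, spots of a probe averaged and 807 probes with a missing value dropped. Probes were kept (32598) where 4 or more of the 16 arrays showed them well above background, and the brightest stood for each gene. RefSeq accessions without version were matched to GRCm38.p6 symbols for 28223 of 29245 probes. limma 3.58.1 in R 4.3.3 fitted 4 group means, with Benjamini-Hochberg adjustment over 24651 targets and calls at 0.05. The fit was tested on simulated data. The array grid uses another build, so only the promoter windows' own coordinates are given.

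The members, gene lists and tests were chosen with earlier results of these data known. Named besides the members were up to 4 called complement genes with the largest change in each comparison, always C3, C1s1, Serping1 and C5ar2, the 5 genes most like C1q and the 5 most like Cfb. Replicate numbers were checked for pairing. Alternatives were quantile normalization, median scaling, normexp with offset 50, other filters and probe rules, slide and replicate blocks, array weights, a variance trend, only the arrays compared and arrays left out. C7 was not used here because no probe matched it, and 1 other complement gene is not reported here.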

Additional observations from a re-analysis of the deposited data

Results flagged for a closer look

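One array of 4 stood far from the other three in 2 of the 36 member groups examined, where chance alone flags about 1 group in 20. C1qa in GenV replicate 3 had a log2 scaled signal of 2.25, with 1.52, 1.53 and 1.58 on the other GenV arrays, and the same array had the highest C1qb, C1qc and Cfb signals of all 16. C4b in GenD replicate 1 had 0.15, with 0.77, 0.75 and 0.84 on the other GenD arrays. Without that array the GenD minus GenV difference of C4b was -0.44, and it was not called in either fit. The macrophage sum was also highest in GenV replicate 3, at 89.8, and its part in the values was not tested.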

How the results depend on the processing

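Under the 22 alternatives for SalD against SalV, C4b kept its call in 22, C3ar1 in 20, C1ra in 17 and Cfb in 9, and under the 22 for GenD against SalD, C1ra kept it in 22, C3ar1 in 20, C1qb in 18 and C1qa in 13, each with its direction. Calls lost outside the report's text were Cfb with normexp (adjusted p = 0.0686), with no filter (0.0569) and without SalD replicates 2 and 3 (0.146), C1ra without those arrays (0.110), C3ar1 in GenD against SalD with normexp (0.0618) and C1qa there with normexp (0.220) and without SalD replicates 2 and 3 (0.0756). The count of members called in SalD against SalV was 2 with normexp and 2 with the slide as a fixed block, and 2 to 4 when 1 array was left out, with 2 without SalV replicate 1, SalV replicate 3 or SalD replicate 2. In GenD against SalD it was 2 with median scaling, 2 with normexp and 2 to 5 when 1 array was left out, with 2 without SalD replicate 1, GenD replicate 3 or GenD replicate 4. In GenD against GenV it was 1 with array weights (C4b, adjusted p = 0.0211) and 0 when any array was left out, and it stayed 0 for GenV against SalV and for the difference of effects in every alternative run. Scaling moved the median of all targets in SalD against SalV: -0.16 in the fit reported, -0.04 with quantile normalization, 0.07 with median scaling and -0.49 with normexp, and 2082 of 5669 calls were higher in the fit reported, 2262 of 4783 with quantile normalization and 3431 of 5295 with median scaling. In GenD against SalD 4078 of 5654 were higher, 3017 of 5364 with quantile normalization, 2615 of 4645 with median scaling and 2694 of 3297 with normexp. Counts of all targets called that moved by over 1.5 times were, beside 5669 for SalD against SalV, 3326 with normexp, 3585 without SalD replicates 2 and 3, 3107 without SalV replicate 1 and 3565 without SalD replicate 4, beside 1303 for GenD against GenV, 370 with normexp, 831 with the slide as a fixed block, 571 with only the arrays compared, 6065 with array weights and 862, 835 and 719 without GenV replicate 1, GenD replicate 2 or GenD replicate 3, and beside 5654 for GenD against SalD, 3297 with normexp, 11033 with array weights, 2394 without SalD replicates 2 and 3 and 3379, 3531 and 3293 without SalD replicate 3, SalD replicate 4 or GenD replicate 3. The difference of effects was called for 0 targets, 96 with array weights and 1 in each of the fits without GenV replicate 3, without GenD replicate 3 and without GenV replicates 3 and 4, and GenV against SalV for 1 target, and for 0 to 2 under the alternatives.

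Signs turned in 47 member results and 8 of other complement genes, 0 of them called under the alternative, and the cause was not tested. With quantile normalization these were C1qc (-0.072) and C2 (-0.071) in SalD minus SalV and C5ar1 (-0.56) in the difference of effects, with median scaling C2 (-0.048) in GenD minus SalD, with the mean of a gene's probes C2 (-0.11) and with a random slide block C2 (-0.0027) in SalD minus SalV. With normexp they were C1qc (-0.030) in SalD minus SalV, C3ar1 (0.15) and C5ar1 (0.94) in GenD minus GenV and C3ar1 (-0.27) and C5ar1 (-0.74) in GenV minus SalV. With array weights they were C1qb (0.11), C2 (0.28) and C3ar1 (0.10) in GenD minus GenV, C2 (0.18) in the difference of effects and Cfb (-0.14) in GenV minus SalV. Without GenV replicates 3 and 4 they were C1qb (0.095) and C2 (0.12) in GenD minus GenV, C2 (0.12) in the difference of effects and C2 (-0.049) and Cfb (-0.35) in GenV minus SalV. Without SalD replicates 2 and 3 they were C1qc (-0.12) and C2 (-0.18) in SalD minus SalV and C2 (0.064) in the difference of effects. For C3 they were 0.14 with quantile normalization, 0.18 with median scaling, 0.030 with normexp and 0.025 with array weights in SalD minus SalV, and 0.052 with array weights and 0.054 without GenV replicates 3 and 4 in GenD minus GenV.

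When 1 array was left out, signs turned within these ranges: C1qc -0.14 to 0.12, C2 -0.11 to 0.14 and C3 -0.15 to 0.15 in SalD minus SalV, C1qb -0.30 to 0.034, C2 -0.22 to 0.043 and C3ar1 -0.28 to 0.056 in GenD minus GenV, C2 -0.25 to 0.042, C5ar1 -0.14 to 0.45 and Cfb -0.028 to 0.55 in the difference of effects, C3ar1 -0.0023 to 0.44 and Cfb -0.024 to 0.55 in GenV minus SalV, and C2 -0.066 to 0.21 in GenD minus SalD. Replicate numbers did not pair the arrays: same-numbered arrays of different groups correlated from -0.37 to 0.38 in their deviations (median 0.03, 24 pairs), and 5 of 16 arrays were closest to their own number. With the replicate block 6 members were called in SalD against SalV, C1qa (adjusted p = 0.0422) and C1qb (adjusted p = 0.0450) being added, and it changed no other member count. The difference of effects could not be fitted on only the arrays compared, no count of called members was made within slides, and C5ar1 has no value where all 16 arrays had to be above background. Signal near background leaves C5ar1 without a shown difference and Mbl2 without a measured fold.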
